A study of Danio rerio with 6 samples.

Results

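The genes described here encode splicing factors and heterogeneous nuclear ribonucleoproteins (hnRNPs), measured in whole zebrafish embryos of the sphere stage (a stage of the blastula). A gene was taken by the start of its current symbol or of its name in the array design. The starts were sf3, snrp, sfrs, srsf, hnrnp, hnrp, prpf, u2af or lsm and a digit. Another 7 genes with a target have such a start only among their other older symbols and were not taken. The rule found 67 genes, carried by 118 of the 38489 targets on the array, and each gene was represented by its brightest target. Control embryos had been injected with a control morpholino (control-MO) and were of normal phenotype per the labels. The others had been injected with nanog-like-MO1, a morpholino (an antisense oligonucleotide that binds 1 transcript) against nanog-like. That gene is called nanog today and encodes a maternally supplied homeobox factor. Total RNA of each group was measured on 3 arrays, labelled as biological replicates of separate cultures. The labels do not give the number of embryos per array, the strain, the morpholino dose or an uninjected group, and 1 morpholino against nanog was used.

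Splicing removes introns from transcripts in a complex, the spliceosome, that assembles anew on each intron. The U1 particle binds the 5′ splice site, U2AF and the U2 particle bind the 3′ splice site and the branch point, and the U4/U6.U5 tri-snRNP (a pre-formed assembly of small nuclear ribonucleoproteins) then joins. Rings of Sm or LSm proteins sit on the small nuclear RNAs. SR proteins and hnRNPs bind the transcript itself and influence which sites are used. In the early zebrafish embryo most transcripts are of maternal origin, and at the sphere stage the zygotic genome has only recently become active.

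Values are log2 normalized intensities, so that a difference of 1 is a 2-fold change. Median raw intensities of the 6 arrays lay between 408 and 529, and every array correlated with the others of its group at 0.983 or above over all targets. Correlations between arrays of different groups were as high, up to 0.986. The marker genes were listed with earlier results of these data known, so their counts are a description only. Among genes that mark early zygotic transcription, 5 of 7 passed the test as lower in morpholino embryos and 1 as higher. Over all targets the shares were 0.39% and 0.257%. The SoxB1 factor gene sox3 was at a log2 fold change of -4.16. All 3 measured yolk syncytial layer markers were also lower, while none of 7 enveloping layer, 4 germ cell and 4 maternal markers passed. Among those without a pass, all morpholino arrays lay above all control arrays for cldne (0.64) and cldnf (0.68) of the enveloping layer and tdrd6a (0.96) of germ cells. They lay below for the maternal pou5f3 (-0.18). Markers of later differentiated cells were dim, with group means between 5.94 and 7.83. In whole embryos, fewer cells of a type and less RNA per cell cannot be told apart.

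The comparison asked whether transcripts of the splicing machinery differed between control and nanog-like-MO1 embryos. None of the 67 genes passed in either direction (limma, adjusted p under 0.05 over all targets), against 0.647% of all targets (0.257% higher and 0.39% lower). The lowest adjusted p among them was 0.414, for hnrnpub. Without adjustment, limma gave p under 0.05 for 1 gene, hnrnpub, which is 1.49% of the 67 against 10.3% of all targets. On the authors' RMA value table limma gave 0 of the 67, against 10.3% of all targets there. The 3 arrays of one group did not overlap those of the other for 6 genes. That is 8.96%, against 15.3% of all targets (7.36% higher and 7.97% lower). In 3 of the 6 the morpholino arrays lay higher (prpf38b, hnrnpa0a and hnrnpub), and in 3 they lay lower (u2af1, snrpa1 and srsf1a). With 1 array left out, which leaves fewer values to overlap, 8 to 16 genes lay apart, the most without control replicate 2 (16 genes, against 25.3% of all targets in that fit). The even split between directions depends on the scaling. With arrays centred on reference genes 11 genes lay higher and 0 lower (17.4% and 3.26% of all targets). With median scaling 0 lay higher and 7 lower (4.4% and 10.9%). Before that centring, the 10 reference genes had a median log2 fold change of -0.091. The groups did not overlap for 4 of them (40%, against 15.3% of all targets), gapdh, ppiaa, rpl13a and b2m, each lower in morpholino arrays. Whether the 10 genes suit as a reference here was not tested.

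The differences were small in both directions. Log2 fold changes, morpholino minus control, ran from -0.45 for srsf7b to 0.41 for lsm7, with 31 above 0 and 36 below. Their median was -0.0043, against -0.012 over all targets. The array numbers in the labels fall in 3 ranges, and the one that holds both groups has the 3 control arrays and morpholino replicate 3. Inside it the median of the 67 genes was 0.053, against -0.019 over all targets, and hnrnpub was at 0.30. The median absolute log2 fold change was 0.088, against 0.135 over all targets. An absolute value of 0.25 or more was found for 6 genes, or 8.96%, against 27.4% of all targets. None reached 0.5, which 8.65% of all targets did. The targets of these genes were chosen for brightness, while all targets were not. Shares, SEs and SDs given against all targets were not matched on level, and the part of brightness in them was not tested.

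Under the scaling used, the intervals bounded most of these differences. They take the scaling as given. The median log2 fold change of the 67 genes was 0.116 with arrays centred on reference genes and -0.140 with median scaling. The 95% interval of the log2 fold change lay inside a 2-fold change in either direction for 65 of the 67 genes, against 86.8% of all targets. The exceptions were srsf7b and lsm7. It lay inside a 1.5-fold change for 54 genes, against 56.2% of all targets. The median SE was 0.133 for these genes and 0.154 over all targets, and single SEs ran from 0.091 to 0.434. The interval of hnrnpub alone excluded 0. A gene that missed the threshold is not thereby shown to be at the same level in both groups.

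**Figure D1:**
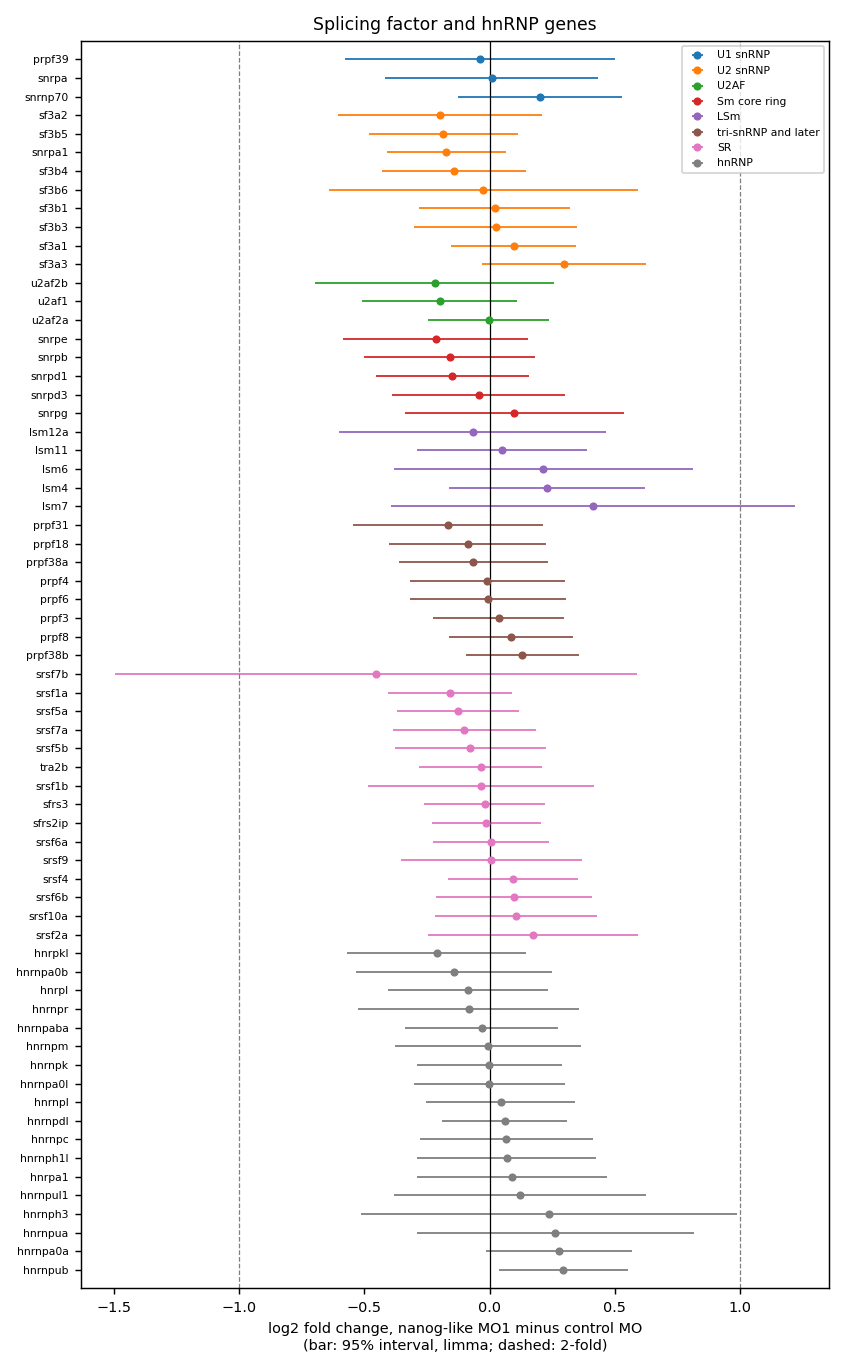
Log2 fold change, nanog-like MO1 minus control MO, of 66 of the 67 genes (points) with the 95% interval of the limma fit (bars), grouped and coloured by role; the dashed lines mark a 2-fold change. The points lie between -0.45 and 0.41, and the intervals drawn stay inside the dashed lines, the exceptions being srsf7b and lsm7.

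**Figure D2:**
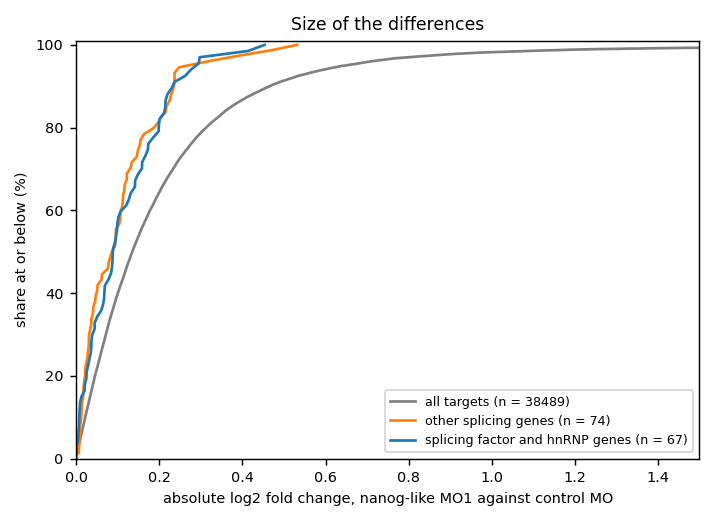
Share of targets (vertical axis, %) whose absolute log2 fold change lies at or below the value on the horizontal axis, for all 38489 targets, 74 other splicing genes and the 67 splicing factor and hnRNP genes. Both curves of splicing genes lie above that of all targets over most of the axis, with medians of 0.088 for the 67 genes, 0.090 for the other splicing genes and 0.135 for all targets. Splicing genes are shown by their brightest targets, and the curves are not matched on level.

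The targets were chosen for brightness, 1 per gene by the authors' value table, so their levels are a description only. Mean levels over the 6 arrays ran from 8.18 to 15.10 with a median of 13.67, where the median over all targets, which were not so chosen, was 8.66. A mean above 12 was found for 54 genes and one below 10 for 5. Only srsf7b and hnrnph3 lay below the median of all targets, and none lay below its 25th percentile of 6.74. Levels of different targets come from different probes, so they order brightness and not transcript number. The replicates lay close together, with a median SD of 0.146 in control and 0.125 in morpholino embryos, against 0.179 and 0.173 over all targets.

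Among 4 genes of the U1 particle, log2 fold changes ran from -0.04 to 0.20, with 3 above 0. The gene snrnp70 encodes the U1 protein that binds the stem-loop of U1 RNA. Its levels were 14.30, 14.48 and 14.02 in the control arrays and 14.48, 14.45 and 14.47 in the morpholino arrays. The morpholino arrays lay close together near the highest control array, and the groups overlapped. The log2 fold change was 0.20 (SE 0.137, adjusted p = 0.721 by limma). A second component gene of the particle, snrpa, was at 0.01, and prpf39, named from a U1-associated yeast protein, was at -0.04.

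The U2 particle was represented by 9 genes, 4 above 0 and 5 below, with a median of -0.025. The SF3a and SF3b complexes help U2 to hold the branch point. Within SF3a, sf3a3 lies on chromosome 19 (20635300 to 20646286 in the array design). Its levels were 13.99, 13.79 and 13.77 in control and 13.93, 14.31 and 14.20 in morpholino arrays. Only morpholino replicate 1 lay within the control range. Its log2 fold change of 0.30 (SE 0.137, adjusted p = 0.540 by limma) was the largest of the U2 genes. Its partner sf3a2 was at -0.20 (SE 0.169), with levels of 13.16, 12.85 and 12.80 in control and 12.84, 12.92 and 12.45 in morpholino arrays, so that only morpholino replicate 3 left the control range. The third subunit gene, sf3a1, was at 0.10 and was the brightest U2 gene in the authors' value table. The SF3a genes thus had values on both sides of 0, none past the test.

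Of the SF3b genes, sf3b1, which encodes the large scaffold subunit, and sf3b3 were both at 0.02, and sf3b4 was at -0.14. The small subunit gene sf3b5 had levels of 11.71, 11.47 and 11.74 in control and 11.32, 11.48 and 11.56 in morpholino arrays, with a log2 fold change of -0.19 (SE 0.123, adjusted p = 0.712 by limma). Its groups overlapped through control replicate 2. The gene snrpa1 encodes a structural protein of the U2 particle and lies on chromosome 7 (3596351 to 3607814). Its 3 control levels of 13.51, 13.32 and 13.44 all lay above its morpholino levels of 13.21, 13.25 and 13.29. The difference was -0.17 (SE 0.099, 95% interval -0.411 to 0.067, adjusted p = 0.652 by limma). The exact permutation test, 2-sided, had p = 0.1, the smallest that 3 against 3 arrays allow.

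U2AF is the dimer that recognises the 3′ splice site. All 3 of its genes were below 0. The small subunit gene u2af1 lies on chromosome 9 (1774606 to 1786937). Its levels were 12.45, 12.82 and 12.50 in control and 12.34, 12.39 and 12.45 in morpholino arrays. The groups were separated by less than the second decimal, between control replicate 1 and morpholino replicate 3. Its log2 fold change was -0.20 (SE 0.129, 95% interval -0.508 to 0.110, adjusted p = 0.701 by limma). The large subunit is encoded by the paralogs u2af2a and u2af2b. The first was level between the groups at -0.00 (SE 0.101, 95% interval -0.247 to 0.238). The second had 12.91, 12.57 and 12.87 in control and 12.19, 12.62 and 12.88 in morpholino arrays, a difference of -0.22 (SE 0.198) in which morpholino replicate 1 stood lowest.

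The Sm ring, common to the U1, U2, U4 and U5 particles, was represented by 5 genes, of which 4 were below 0 (median -0.15). The lowest value was that of snrpe at -0.21 (SE 0.153, adjusted p = 0.737 by limma). Its control levels were 11.49, 11.14 and 11.55 and its morpholino levels 10.99, 11.23 and 11.31, overlapping through control replicate 2. The brightest Sm gene in the authors' value table, snrpd3, had 12.72, 12.34 and 12.70 in control and 12.39, 12.61 and 12.62 in morpholino arrays, a difference of -0.04. The values of snrpb and snrpd1 were -0.16 and -0.15, and that of snrpg was 0.10. The snrpd1 target is named by a map marker that sits on another chromosome in the design, though its human name there is SNRPD1.

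Several LSm proteins form a related ring that binds U6 RNA, and a second ring of nearly the same subunits works in mRNA decay. The class was taken by symbol, and not each of its genes encodes a subunit of these rings. Of 5 LSm genes, 4 were above 0, with a median of 0.21. Without control replicate 2, only lsm4 (0.08) and lsm7 (0.02) were above 0, lsm6 was at -0.06, and the median was -0.05. The gene lsm7 (chromosome 22, 6322093 to 6325616) had the highest log2 fold change of all 67 genes. For lsm7 it was 0.41 (SE 0.336, 95% interval -0.395 to 1.221, adjusted p = 0.778 by limma). Its control levels were 10.97, 9.75 and 10.87 and its morpholino levels 10.69, 10.98 and 11.16. Control replicate 2 stood far under the other 5 arrays. The same array was lowest for lsm6, with 9.62, 8.81 and 9.64 in control against 9.47, 9.44 and 9.80 in morpholino arrays. It was also lowest for lsm4, with 12.51, 11.93 and 12.25 against 12.36, 12.51 and 12.51. Their log2 fold changes were 0.21 (SE 0.249) and 0.23 (SE 0.163). The genes lsm11, which in mammals encodes a subunit of the histone pre-mRNA processing particle U7, and lsm12a were at 0.05 and -0.07. The levels of lsm11 were 13.04, 12.78 and 13.12 in control and 12.84, 13.15 and 13.11 in morpholino arrays.

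Control replicate 2 was low for the Sm and LSm genes together, a pattern noticed in the values. It was the lowest of the 3 control arrays for 8 of the 10 genes (80%), for 14 of the other 57 genes (24.6%) and for 35.7% of all targets. The 10 genes were put together after their values were seen. Control replicate 2 was also lowest for snrpa (13.86, 13.30 and 13.88 in control), sf3b5 and, outside the naming rule, snrnp25 (11.14, 10.42 and 10.94). These genes were picked for that dip, while the median deviation of the other 57 genes from their control mean was 0.060 on this array. The median deviation of the 10 genes from their control mean was -0.25 on this array, and that of control replicates 1 and 3 was 0.081 and 0.147. The morpholino arrays were at -0.12, 0.068 and 0.183 on the same scale. With all arrays, the median log2 fold change of the 10 genes was 0.0031, without control replicate 2 it was -0.088, and without morpholino replicate 1 it was 0.17. The median over all members stayed between -0.017 and 0.028 when any 1 array was left out.

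**Figure D3:**
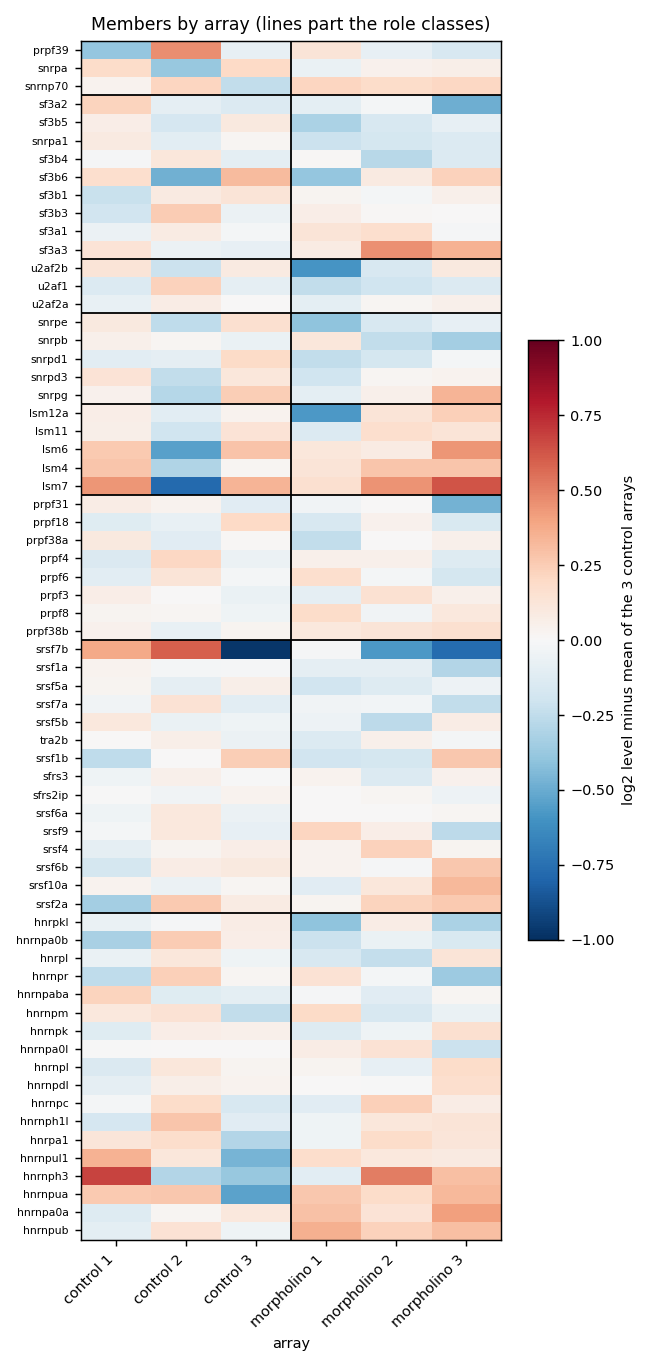
Log2 level of 66 of the 67 genes on the 6 arrays, minus the mean of the 3 control arrays (colour), with horizontal lines between the role classes in the order U1, U2, U2AF, Sm, LSm, tri-snRNP and later, SR and hnRNP. Most cells are pale; control 2 is blue for lsm6, lsm4 and lsm7, and srsf7b and hnrnph3, the dimmest genes, are uneven across replicates.

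The tri-snRNP and later spliceosome factors numbered 8 genes, with log2 fold changes between -0.17 and 0.13 and a median of -0.0078. The gene prpf8 encodes the U5 protein at the heart of the spliceosome and was at 0.09 (SE 0.103). The factors prpf3, prpf4 and prpf31 of U4/U6 were at 0.04, -0.01 and -0.17, prpf6, which bridges U5 to U4/U6, was at -0.01, and the second-step factor prpf18 was at -0.09. Of these, prpf4 rested on 2 probes and prpf31 on 4. The gene prpf38b lies on chromosome 2 (33588872 to 33597523). Its control levels of 14.40, 14.28 and 14.38 all lay under its morpholino levels of 14.46, 14.48 and 14.51. The difference was 0.13 (SE 0.094, adjusted p = 0.737 by limma). In the authors' RMA value table it was -0.0056. The related gene prpf38a, whose human counterpart acts in spliceosome activation, had 14.21, 14.00 and 14.12 in control and 13.86, 14.11 and 14.16 in morpholino arrays, a difference of -0.06.

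SR proteins bind exonic enhancers through an RNA recognition motif and recruit the core machinery through a domain rich in arginine and serine. Of 15 genes in this class, 6 were above 0 and 9 below, with a median of -0.020. The lowest value of all 67 genes belonged to srsf7b (chromosome 11, 44196895 to 44201626), the dimmest member. Its levels were 8.79, 9.01 and 7.44 in control and 8.40, 7.84 and 7.64 in morpholino arrays. Control replicate 3 stood under every morpholino array and the other control arrays above them, so the groups overlapped fully. The log2 fold change of -0.45 (SE 0.434, 95% interval -1.495 to 0.589, adjusted p = 0.817 by limma) was -0.94 without control replicate 3. Its paralog srsf7a was bright, with 14.58, 14.76 and 14.51 in control and 14.58, 14.59 and 14.37 in morpholino arrays, and was at -0.10 (SE 0.119), on 4 probes. Further targets of srsf7a ran from -0.08 to 0.32, all but the lowest above 0.

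The gene srsf1a, a zebrafish counterpart of the founding SR protein gene SRSF1, was the SR gene whose groups lay apart. On chromosome 15 (7980782 to 7982890) its target read 14.02, 13.96 and 13.97 in control and 13.89, 13.89 and 13.69 in morpholino arrays. The difference was -0.16 (SE 0.103, 95% interval -0.406 to 0.090, adjusted p = 0.704 by limma). The brightest SR target in the authors' value table, that of srsf2a, had 14.67, 15.27 and 15.09 in control and 15.04, 15.23 and 15.27 in morpholino arrays, a difference of 0.17 (SE 0.174) on 2 probes. Further targets of srsf2a were below 0, at -0.21, -0.18 and -0.06, the last named by a marker on another chromosome. For that at -0.21, also on 2 probes, all morpholino arrays lay under all control arrays. The SR-like regulator tra2b was at -0.04 and sfrs3 at -0.02, with SEs of 0.102 and 0.101. The remaining SR genes lay between -0.13 for srsf5a and 0.11 for srsf10a.

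The hnRNPs coat nascent transcripts, and several act in splicing, export and stability. With 18 genes they were the largest class, 10 above 0 and 8 below, with a median of 0.052. The gene hnrnpub (chromosome 20, 27919936 to 27931772) is a zebrafish counterpart of the gene for hnRNP U, a large nuclear RNA- and DNA-binding protein. Its levels were 13.75, 13.99 and 13.80 in control and 14.20, 14.08 and 14.15 in morpholino arrays, with all morpholino arrays above all control arrays. The difference of 0.29 (SE 0.107, 95% interval 0.037 to 0.553) was a ratio of 1.23 and did not pass (adjusted p = 0.414 by limma; 2-sided exact permutation test, p = 0.1). It lay between 0.25 and 0.36 with any 1 array left out, and was 0.19 in the authors' RMA value table. Its paralog hnrnpua was at 0.26 (SE 0.230), with 13.90, 13.91 and 13.10 in control and 13.91, 13.82 and 13.96 in morpholino arrays. Control replicate 3 stood low for hnrnpua, and without it the value was -0.0045. A further hnrnpua target with the same position in the design was at 0.06 (SE 0.175).

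The gene hnrnpa0a encodes an hnRNP of the A/B family, and its groups also lay apart. Levels on chromosome 14 (16096934 to 16099335) were 11.93, 12.08 and 12.16 in control and 12.35, 12.19 and 12.47 in morpholino arrays. The difference was 0.28 (SE 0.121, 95% interval -0.014 to 0.567, adjusted p = 0.515 by limma). Its paralog hnrnpa0b had 13.65, 14.23 and 14.04 in control and 13.76, 13.91 and 13.82 in morpholino arrays, a difference of -0.14 (SE 0.163). A further hnrnpa0b target that overlaps it in position was at -0.34 (SE 0.256). A dim target named hnrnpa0b by a marker on another chromosome was at -0.03. In the authors' RMA value table the chosen hnrnpa0b target was at -0.31 and the overlapping target at -0.95. Among chosen targets, the lowest hnRNP value was that of hnrpkl, a gene like hnrnpk, at -0.21 (SE 0.149). Its levels were 9.41, 9.46 and 9.55 in control and 9.07, 9.55 and 9.16 in morpholino arrays. Morpholino replicates 1 and 3 lay under its control arrays. In the authors' RMA value table hnrpkl was at -0.021.

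The poly(C)-binding hnRNP K gene, hnrnpk, was the brightest hnRNP gene in the authors' value table. Its levels of 14.82, 15.01 and 14.99 in control and 14.81, 14.90 and 15.10 in morpholino arrays gave a difference of -0.00 (SE 0.121, 95% interval -0.291 to 0.289). The dim gene hnrnph3 spread widely within groups, with 8.99, 8.02 and 7.94 in control and 8.21, 8.83 and 8.62 in morpholino arrays, and was at 0.24 (SE 0.313). It lay between 0.051 and 0.57 with 1 array left out, and was 0.0051 in the authors' RMA value table. Among the other hnRNP genes, log2 fold changes lay between -0.09 for hnrpl and 0.12 for hnrnpul1. They included hnrnpc, whose human counterpart binds uridine tracts, at 0.07, and hnrpa1, a marker name not resolved to 1 gene, at 0.09. The chosen targets of hnrnpaba and hnrnpr lie on unplaced scaffolds and are named by map marker, with the human names HNRPAB and HNRPR in the design. The chosen hnrnpaba target was at -0.03. Further hnrnpaba targets, named by a marker on their own chromosome and by RefSeq accession, were at 0.17 and 0.24.

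Zebrafish keeps duplicates of many of these genes, and 9 pairs of members differ in their last letter. In 7 of them the letters mark duplicates, while snrpa and snrpb, and prpf38a and prpf38b, are different genes. The difference of the log2 fold changes was largest for hnrnpa0a over hnrnpa0b, at 0.42 (SE 0.168, 95% interval -0.050 to 0.884). The exact permutation test (2-sided) had p = 0.2, or 0.72 adjusted over the 9 pairs. For srsf7a over srsf7b it was 0.35 (95% interval -0.965 to 1.670) and for u2af2a over u2af2b 0.22 (-0.379 to 0.809). For prpf38a over prpf38b it was -0.20 (-0.430 to 0.039), with the smallest exact permutation p, 0.1, again 0.72 when adjusted. With 3 arrays a group the exact permutation test cannot go below p = 0.1, so no pair could pass it, and the intervals are the description to use. All 4 include 0 and leave room for differences of the sizes given.

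For 28 of the genes the array held further targets, 51 in all, which carry the same gene name. Several overlap the chosen target in position, and whether they share probes with it was not checked. None of the 51 passed in the same limma fit, and 2 (3.92%) had an unadjusted p under 0.05, against 10.3% of all targets. Both of the latter were named by map marker, and the design gives them the human names NFIL3 and HADHA. For 41 of the 51 the log2 fold change lay within 0.25 of that of the chosen target. All 3 targets of srsf1a were below 0, between -0.18 and -0.16. Of the 3 targets that differed from the chosen one by more than 0.5, a second srsf1b target was dim and uneven, with 8.75, 8.24 and 9.33 in control and 10.31, 8.46 and 9.76 in morpholino arrays (0.74, SE 0.504).

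The other 2 carried the name srsf6b only through a map marker, placed by the design on another chromosome than the target. One, on chromosome 25, read 9.13, 9.64 and 9.72 in control and 7.71, 8.32 and 7.79 in morpholino arrays, a difference of -1.56 (SE 0.227, adjusted p = 0.0519 by limma). It passed in 6 of the 16 alternative fits, among them that of the authors' RMA value table (limma, adjusted p = 0.0165). The design gives that target the human name NFIL3, a gene for a transcription factor, so its value is not assigned to srsf6b. The other, on chromosome 16, was at 1.07 (SE 0.504, adjusted p = 0.556 by limma). The chosen srsf6b target was at 0.10. A pair of targets named snrpa by a map marker carry the human name HADHA, a mitochondrial enzyme gene, and were at 0.30 and 0.26 beside 0.01 for the chosen snrpa target.

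**Figure D4:**
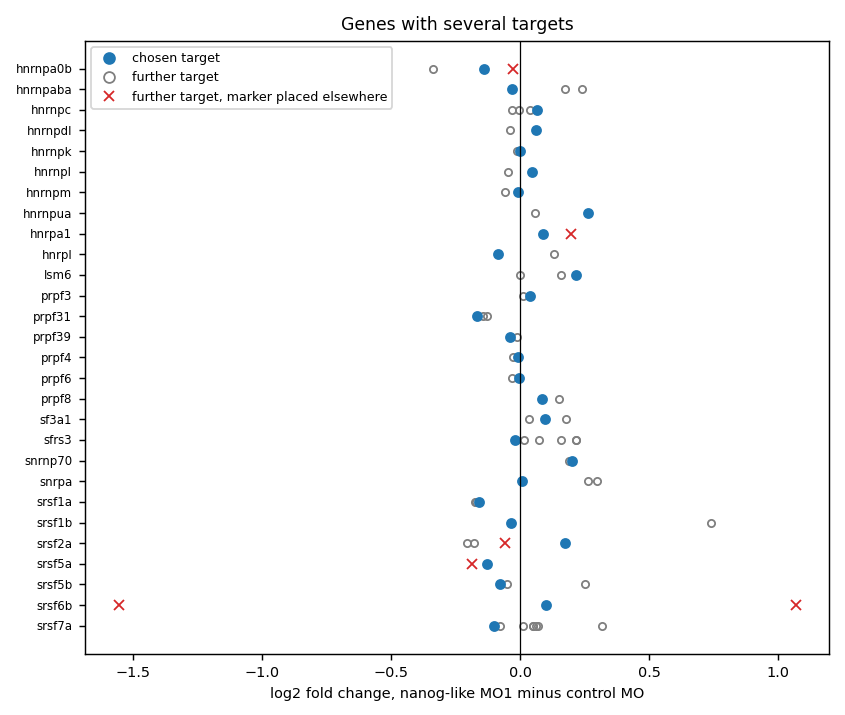
Log2 fold change, nanog-like MO1 minus control MO, of the chosen target (filled) and the 51 further targets of the 28 genes with several targets. Further targets are open circles, or crosses where the map marker that gave the name was not matched to the target's own chromosome. A cross of srsf5a has no position in the design. Further targets mostly lie near the chosen one; the 2 crosses of srsf6b, at -1.56 and 1.07, and a second srsf1b target at 0.74 stand away.

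Splicing genes outside the naming rule were read in the same fit. Of 110 such genes listed, 74 had a target, and none passed in either direction (limma, 0.647% of all targets). At an unadjusted p under 0.05 there were 3 (4.05%, against 10.3% of all targets), and the groups did not overlap for 8 (10.8%, against 15.3%). Their median log2 fold change was -0.0002. Each of these genes was also represented by its brightest target, so the shares are not matched on level either. The gene phf5a, which encodes a small subunit of SF3b and so belongs beside the sf3b genes, had control levels of 10.43, 10.34 and 10.26, all above its morpholino levels of 9.85, 9.98 and 10.03. Its log2 fold change was -0.39 (SE 0.104, 95% interval -0.637 to -0.137, adjusted p = 0.264 by limma). The gene clns1a, which encodes a chaperone of Sm ring assembly, had 11.61, 11.75 and 11.73 in control and 12.46, 12.18 and 11.85 in morpholino arrays, a difference of 0.47 (SE 0.168, adjusted p = 0.404 by limma). The hnRNP-like gene raly was at 0.31 and the U1-associated luc7l at -0.24, with adjusted p of 0.456 and 0.521 by limma and no overlap between groups in either.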

How the data were processed

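The files deposited for the 6 arrays hold an intensity per target, averaged over its perfect-match probes per the file headers and not yet normalized between arrays. The authors' value table holds linear intensities. It was made with RMA according to the submitters' processing notes, with no version given in the sources used; its scaling and centring stay unknown. The per-array intensities were background-corrected (normexp, offset 50), quantile normalized and taken to log2. The offset understates differences of dim targets, and quantile normalization takes most targets to be unshifted. The plan had allowed for per-array RMA values.

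Targets were fitted with limma 3.58.1 in R 4.3.3 (group only, 2-sided), with Benjamini-Hochberg adjustment over 38489 targets and a threshold of 0.05. Intervals of 95% use the moderated fit, except those of the pairs, which use an ordinary 2-group SE with 4 degrees of freedom. The pairs were tested in Python 3.11.15 with scipy 1.17.1. The fit was tested on simulated data.

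Of the 67 genes, 20 were named by a current symbol in the design, 28 by an older one, 9 by map marker, 5 by RefSeq accession, 2 by gene number and 3 by a design symbol not resolved to 1 gene (sfrs3, sfrs2ip, hnrpl; the marker name hnrpa1 is unresolved too), through a RefSeq gene table of GRCz12tu. The brightest target in the RMA table stood for a gene. Coordinates are the design's. Scaffold names in the design point to build Zv7 and were the only source for it. The build was not checked for each target. Targets of prpf4 on chromosome 5 start at 44130966 and at 50952142, so the build may differ between targets. The 1380 reverse-strand targets stayed in the fit and were not named.

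Genes are named by rule: the 8 largest rises and 8 largest falls, per role class the smallest p and the brightest in the RMA table, the 4 most different pairs, and 4 other splicing genes. Other genes, named after their values were seen, fill out their class. Members and lists were chosen with earlier results of these data known. The array numbers in the labels form ranges, 1 of which held all control arrays and morpholino replicate 3. The replicate numbers did not pair the arrays. Sequences were not used here. Values of 1 member are not reported here singly; it stays in the counts.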

Additional observations from a re-analysis of the deposited data

How the results depend on the processing

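No member passed in either direction in any of 16 alternative fits, with a lowest adjusted p of 0.20 over all fits. In the fit as reported, the same held with members left out or added, other targets chosen or all targets counted. In 6 alternative fits 1 further target passed, the one on chromosome 25 named srsf6b by marker. The 28 named members and the 4 other named splicing genes stayed without a call in all 512 cases, each case being 1 gene in 1 alternative fit. The number of members whose groups do not overlap moved most. It was 6 of 67 as reported, where 15.3% of all targets lay apart. In that same fit it was 10 over all 118 targets of the members, and 2 with the current design symbol alone, a smaller set. With 1 array left out it was between 8 and 16 (22.6% to 28.2% of all targets). With arrays centred on reference genes it was 11 (20.7% of all targets). It was 33 inside the array number range of both groups, which leaves 1 morpholino array (55.5% of all targets). Under that centring the median log2 fold change was 0.108 over all targets and 0.116 over the members, all 11 were then higher, and 4 members had an unadjusted p under 0.05 (limma, 12.3% of all targets). Median scaling moved the medians to -0.10 and -0.14, with 7 members apart, all lower. With the replicate number as a block, 0 members were called higher and 0 lower. The block gave 46 higher and 88 lower over all targets, against 99 and 150. Same-numbered arrays deviated together at -0.013, -0.097 and 0.171, and 2 of 6 arrays correlated best with their own number. Fitting the ranges of array numbers as a batch gave the same medians as the shared range alone, 0.053 over the members and -0.019 over all targets. Morpholino replicate 3 alone carries the group difference in both fits, so the absence of calls there says little about the members. Counts over all targets lay between 35 and 66 higher and between 60 and 119 lower with 1 array left out. The 4 choices on members and targets added to the plan were made after seeing the data. The number of arrays limits the precision.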
